A study of Mus musculus with 8 samples.

Results

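A set of 10 histone genes was followed through the cell clusters of differentiating white fat precursor cells. They were taken by name and comprise 5 linker histone genes (Hist1h1a, Hist1h1b, Hist1h1c, Hist1h1d and Hist1h1e), 2 core histone H2A genes (Hist1h2ae and Hist1h2ap) and 3 H2A variant genes (H2afx, H2afz and H2afv). All 10 had at least 1 entry among the 3903 gene symbols of the deposited cluster comparison, with 58 of its 13337 entries. Preadipocytes had been isolated from the inguinal white adipose tissue of C57BL/6 mice aged 8 to 12 weeks, either wild type (WT) or Hmgn1-/- and Hmgn2-/- (double knockout, DKO), and grown on collagen. HMGN1 and HMGN2 are proteins that bind nucleosomes. Single-cell RNA-seq with a 3′ chemistry was performed at day 0 (confluent preadipocytes) and at day 6 of a browning protocol, with 2 samples for each genotype and day and 8 in all. For 4 days the browning medium held rosiglitazone at 1 μM, dexamethasone at 5 μM, the phosphodiesterase inhibitor IBMX at 0.5 mM, thyroid hormone (T3) at 1 nM and insulin at 0.5 μg/ml, and the medium that followed held insulin and T3 only. The table pools the cells of all 8 samples into 12 clusters numbered 0 to 11, so no value belongs to a genotype, a day or a sample, WT and DKO could not be compared, and there are no replicates behind any value.

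The values are detections, the percentage of cells in which at least 1 transcript of a gene was counted, given inside each cluster and in all other cells. A gene has an entry in a cluster only where it passed the minimums of the authors' comparison, so a missing entry is not a detection of 0. The clusters were made from these same cells and genes, so a cluster set against the remaining cells is a description and no test was made. The number of cells and the read depth behind each cluster are unknown, so no counting interval is given. Of the marker lists for the cells the cultures could hold, 5 of 9 preadipocyte genes and 10 of 10 adipocyte genes had an entry. Of the other lists, 0 of 7 immune, 0 of 6 endothelial and 0 of 5 glial genes did. The authors had removed immune, glial and endothelial cells before this clustering, so these absences do not show what the cultures held.

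Histones package DNA. Core histones form the nucleosome particle, and linker histones of the H1 family bind where DNA enters and leaves it and help chromatin to fold. The genes named Hist1 are of the replication-dependent kind, which is transcribed mainly in S phase, when new DNA has to be packaged, and whose messenger RNA mostly ends in a stem-loop in place of a poly(A) tail. The variant genes H2afx, H2afz and H2afv encode H2A.X and 2 forms of H2A.Z, which serve in the signalling of DNA breaks and in the nucleosomes around promoters. H2afz and H2afv are transcribed into polyadenylated messages, while H2afx gives rise to both kinds. The libraries were made from poly(A) RNA, so that for the Hist1 genes the detections count the part of the message that such a library can capture, and how large that part is was not tested.

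The promoters of the 5 linker histone genes are shown here so that the letters they share can be seen. Each line gives 180 bases, from 170 before the start of the RefSeq gene to 10 after it (RefSeq, GRCm38.p6), 5′ to 3′ on the strand of the gene. Capitals mark the letters CCAAT of the CCAAT box, the TATA box letters TATAAA, and the H1 box, which was searched as AAACACA. Both strands were searched, so that a match on the other strand stands in the line as its reverse complement. One core H2A gene and one variant gene follow the linker genes for comparison.
Hist1h1a (chr13:23763498-23763677, plus strand): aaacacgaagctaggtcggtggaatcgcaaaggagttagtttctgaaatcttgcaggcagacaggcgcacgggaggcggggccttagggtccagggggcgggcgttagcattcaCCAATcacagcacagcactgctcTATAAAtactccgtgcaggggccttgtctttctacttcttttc
Hist1h1b (chr13:21780616-21780795, minus strand): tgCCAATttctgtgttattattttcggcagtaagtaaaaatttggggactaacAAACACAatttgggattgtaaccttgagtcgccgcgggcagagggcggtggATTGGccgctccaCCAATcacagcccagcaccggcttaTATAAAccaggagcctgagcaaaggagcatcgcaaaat
Hist1h1c (chr13:23738637-23738816, plus strand): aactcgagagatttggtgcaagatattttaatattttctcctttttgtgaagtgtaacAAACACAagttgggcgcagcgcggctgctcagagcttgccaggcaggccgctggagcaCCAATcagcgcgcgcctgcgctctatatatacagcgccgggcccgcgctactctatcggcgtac
Hist1h1d (chr13:23554862-23555041, plus strand): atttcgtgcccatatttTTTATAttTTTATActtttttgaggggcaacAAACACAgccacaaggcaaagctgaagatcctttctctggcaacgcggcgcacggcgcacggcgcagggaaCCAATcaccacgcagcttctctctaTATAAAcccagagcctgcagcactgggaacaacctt
Hist1h1e (chr13:23622549-23622728, minus strand): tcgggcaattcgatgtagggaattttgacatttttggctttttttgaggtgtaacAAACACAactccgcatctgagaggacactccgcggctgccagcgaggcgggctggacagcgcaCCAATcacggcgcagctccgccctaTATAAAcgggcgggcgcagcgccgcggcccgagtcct
Hist1h2ap (chr13:21833466-21833645, minus strand): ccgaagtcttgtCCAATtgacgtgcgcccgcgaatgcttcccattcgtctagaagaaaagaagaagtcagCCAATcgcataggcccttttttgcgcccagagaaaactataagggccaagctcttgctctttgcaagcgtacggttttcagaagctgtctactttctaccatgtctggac
H2afz (chr3:137864317-137864496, plus strand): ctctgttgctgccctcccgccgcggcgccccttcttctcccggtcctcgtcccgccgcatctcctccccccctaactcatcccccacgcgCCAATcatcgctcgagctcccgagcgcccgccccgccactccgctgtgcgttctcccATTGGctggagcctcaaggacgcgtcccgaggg
A CCAAT lay on the gene's own strand between 51 and 56 bases before the start in each of the 5 linker genes. The H1 box lay 112 to 122 bases before the start in 4 of the 5, the exception being Hist1h1a. TATAAA lay 26 to 33 bases before the start in 4 of the 5, the exception being Hist1h1c. Within the whole window of 250 bases before to 50 after the start, CCAAT was found in 37.4% of all 32851 RefSeq promoters, TATAAA in 13.6% and AAACACA in 7.18%. The promoters of replication-dependent histone genes were picked by gene symbol, 59 in all, with the Hist1 members among them. Whether each of the 59 is of that kind was not checked. Among them CCAAT was found in 84.7%, TATAAA in 57.6% and AAACACA in 13.6%. The first and second of these are thus common to histone promoters at large. The E2F motif was searched as TTTCGCG and TTTGGCG, which 0.849% and 1.57% of all promoters hold (13 and 0 of the 59 histone promoters), and neither was found in any of the 9 members with a promoter sequence. No matches overlapped, and H2afx had no promoter in the table. A match of letters describes a window and does not show that a factor binds there.

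The 7 Hist1 members lie on chromosome 13 (GRCm38, GENCODE M21), each a protein-coding gene with 1 annotated transcript of 1 exon. Hist1h1b (21779883 to 21780625, minus strand) and Hist1h2ap (21833026 to 21833507, minus strand) form one block. Hist1h1d (23553262 to 23560686, plus strand), Hist1h2ae (23570517 to 23571220, minus strand), Hist1h1e (23620629 to 23622558, minus strand), Hist1h1c (23738808 to 23740367, plus strand) and Hist1h1a (23763666 to 23764406, plus strand) form the other. H2afx lies on chromosome 9 (44334694 to 44336077, plus strand), H2afz on chromosome 3 (137864487 to 137866922, plus strand) and H2afv on chromosome 11 (6427229 to 6444443, minus strand). The 3′ end of the annotated gene reached 836 bases past the RefSeq gene for Hist1h1c, 1148 for Hist1h1e, 4879 for Hist1h1d and 146 for Hist1h2ae. It lay 0 bases past it for H2afx and H2afz and fell short of it for Hist1h1a, Hist1h1b, Hist1h2ap and H2afv. The annotated Hist1h1d gene also starts at 23553262, before the RefSeq start at 23555032 that was used for its promoter.

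Some of these genes cannot be told apart from close copies by short reads. For Hist1h2ap, 92.9% of the 60-base windows of its transcript were also present in transcripts of other genes, all of them in Hist1h2ao. How reads shared between genes were counted was not tested. Its detections may thus miss such reads or include those of other H2A genes. The share was 39.2% for Hist1h2ae and 30.6% for Hist1h1e, whose annotated gene overlaps Hist1h2be on the same strand. H2afz shared 16.0% of its windows, chiefly with Gm8203. Hist1h1a, Hist1h1b and H2afv shared 0 windows, and Hist1h1c, Hist1h1d and H2afx between 1.87% and 7.60%.

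The histone genes fell into distinct patterns over the clusters. Hist1h1a, Hist1h1b, Hist1h1e and both core H2A genes were detected most often in clusters 5 and 6, Hist1h1d in cluster 6, and the H2A variants in clusters 5, 6 and 9. Hist1h1c had no entry in any of these, and its detection there is not known. The heatmap of the members gives each detection.

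**Figure D1:**
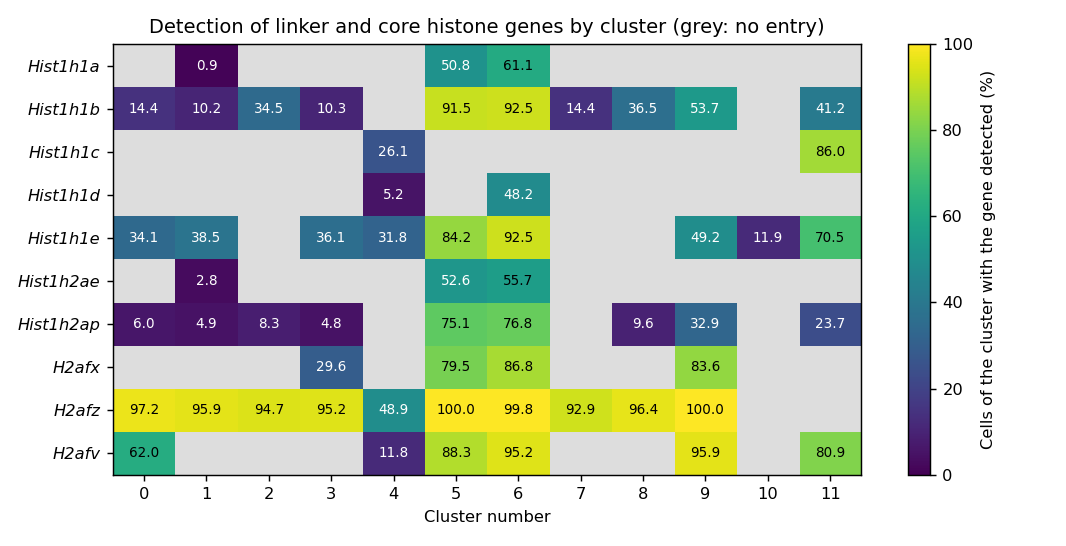
Detection of the 10 histone genes (rows) inside each of the 12 clusters (columns), in percent of the cluster's cells; grey cells have no entry. Hist1h1b and Hist1h2ap are above 75% in clusters 5 and 6 and at 53.7% and 32.9% in cluster 9, while H2afz is at 92.9% or more in 9 of its 10 entries.

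Hist1h1b, which encodes linker histone H1.5, was the linker gene with the most entries, 10 of 12 clusters. Transcripts were found in 91.5% of cluster 5 against 27.8% of all other cells, and in 92.5% against 28.7% for cluster 6. In cluster 9 it was detected in 53.7% against 32.2%. Clusters 5 and 6 were within 2 percentage points of each other and are not ranked, and cluster 9 stood well below both. The detection was 41.2% in cluster 11, 36.5% in cluster 8 and 34.5% in cluster 2, each within 8 points of the remaining cells. It was 14.4% in clusters 0 and 7, 10.3% in cluster 3 and 10.2% in cluster 1, where all other cells were at 34.8% to 37.3%. Over all cells Hist1h1b was detected in 33.5%. Solved from each of its 10 entries, this value varied by 0.0926 points, which checks the arithmetic and is no counting error. The clusters without an entry, 4 and 10, together came out at 21.7% to 22.8%.

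Hist1h1a, the gene of linker histone H1.1, had 3 entries. Its detection was 50.8% in cluster 5 (all other cells 7.6%), 61.1% in cluster 6 (7.4%) and 0.9% in cluster 1 (13.2%). The odds of detecting it were 12.5 times those of all other cells in cluster 5 and 19.7 times in cluster 6. Over all cells it was detected in 11.4%, and the mean over the 9 clusters without an entry, cluster 9 among them, was 3.25%. This gene was thus detected chiefly in cells of clusters 5 and 6.

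Hist1h1d, the gene of linker histone H1.3, had an entry in only 1 of clusters 5, 6 and 9. It was detected in 48.2% of cluster 6 against 6.9% of all other cells, and in 5.2% of cluster 4 against 10.5%. Its detection over all cells was 9.99%, and the 10 clusters without an entry averaged 7.10%.

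Hist1h1e, the gene of linker histone H1.4, was detected in 84.2% of cluster 5 (all other cells 47.9%) and 92.5% of cluster 6 (47.8%). Cluster 9 was at 49.2%, 2.1 points below the 51.3% of all other cells. Cluster 11 was higher at 70.5% (50.8%). Clusters 0, 1, 3 and 4 lay between 31.8% and 38.5%, each below the 52.9% to 54.0% of the remaining cells, and cluster 10 was lowest at 11.9% (52.4%). The detection over all cells was 51.1%, and clusters 2, 7 and 8, which have no entry, averaged 62.2%.

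Hist1h1c, the gene of linker histone H1.2, had only 2 entries. It was detected in 86.0% of cluster 11 against 58.2% of all other cells, and in 26.1% of cluster 4 against 62.1%. Over all cells it was detected in 58.6%, and the 10 clusters without an entry, which include clusters 5, 6 and 9, averaged 61.7%.

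The core H2A genes were also detected most often in clusters 5 and 6. Hist1h2ap was detected in 75.1% of cluster 5 against 13.9% of all other cells, in 76.8% of cluster 6 against 14.7% and in 32.9% of cluster 9 against 18.5%. Its 5 entries below the remaining cells were clusters 0, 1, 2, 3 and 8, at 4.8% to 9.6% against 19.9% to 21.7%. In cluster 11 it was detected in 23.7% against 19.3%. In clusters 2 and 8 it differed from Hist1h1b, which was slightly above the remaining cells there. Over all cells its detection was 19.3%. Hist1h2ae was detected in 52.6% of cluster 5 (8.5%), 55.7% of cluster 6 (8.9%) and 2.8% of cluster 1 (14.0%), with 12.4% over all cells and a mean of 4.62% in the 9 clusters without an entry.

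Over all cells H2afz and H2afv were detected more often than every linker and core H2A member, but H2afx less often than Hist1h1c and Hist1h1e. H2afx was at 79.5% in cluster 5 (all other cells 40.6%), 86.8% in cluster 6 (40.6%) and 83.6% in cluster 9 (41.6%). It was at 29.6% in cluster 3 (45.7%), its remaining entry, and at 44.0% over all cells. Unlike Hist1h1b and Hist1h2ap, it stayed within 8 points across clusters 5, 6 and 9.

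H2afv was detected in 88.3% of cluster 5 (63.1%), 95.2% of cluster 6 (62.9%) and 95.9% of cluster 9 (63.4%), of which the last 2 are within 2 points and not ranked. Cluster 11 was at 80.9% (65.1%) and cluster 0 at 62.0% (65.9%). Cluster 4 was far lower at 11.8% (71.0%). The detection over all cells was 65.3%.

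H2afz was detected in 90.2% of all cells. It reached 100% in clusters 5 and 9 and 99.8% in cluster 6, against 89.3% to 89.6% of all other cells, so that detection has no room left to rank these clusters. Clusters 0, 1, 2, 3, 7 and 8 were at 92.9% to 97.2%, also above their remaining cells (89.1% to 90.0%). Cluster 4, at 48.9% against 94.6%, was the only entry below.

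**Figure D2:**
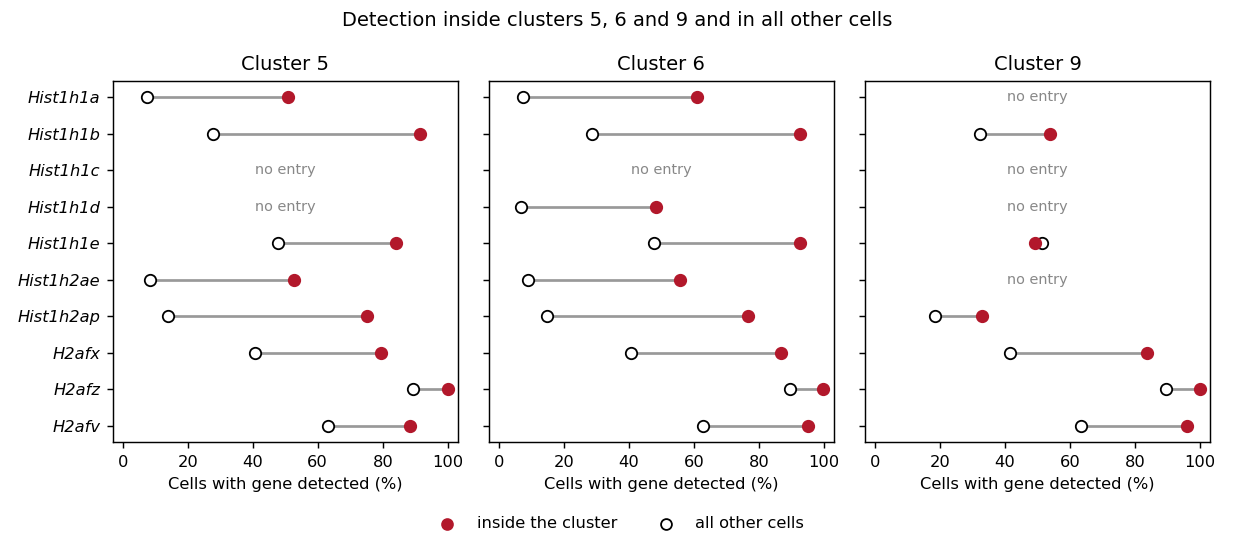
Detection of each member inside clusters 5, 6 and 9 (filled points) and in all other cells (open points), in percent of cells; "no entry" marks members not listed for a cluster. The gap closes between clusters 6 and 9 for Hist1h1e, from 92.5% against 47.8% to 49.2% against 51.3%, and stays wide for H2afx and H2afv.

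Genes of the cell cycle were detected more often in clusters 5, 6 and 9. Of the 30 S phase genes, 29 were listed for cluster 5, 28 for cluster 6 and 7 for cluster 9. Of the 30 G2/M genes, 21 were listed for cluster 5, 29 for cluster 6 and 30 for cluster 9. Every one of these was at least 10 points higher in the cluster than in all other cells, where 72.1%, 51.9% and 76.9% of all genes listed for clusters 5, 6 and 9 were. The median difference of the listed S phase genes was 54.9 points in cluster 5 and 48.1 in cluster 6. In cluster 9, where only 7 were listed, it was 48.4. The listed G2/M genes had medians of 44.7, 52.4 and 62.8 points in clusters 5, 6 and 9. These medians cover different genes in each cluster, so they do not rank the clusters. The leading genes in cluster 5 were Pclaf, Rrm2 and Mcm3 of the S phase list and Top2a, Cdk1 and Birc5 of the G2/M list. In cluster 6 they were Pclaf, Clspn and Rrm2, and Mki67, Top2a and Birc5. In cluster 9 they were Pclaf, Rrm2 and Tyms, and Cenpa, Hmmr and Cdc20. Pclaf, a partner of the replication clamp PCNA, was detected in 92.0%, 91.6% and 83.8% of clusters 5, 6 and 9. Cdc20, an activator of the complex that drives exit from mitosis, was detected in 86.6% of cluster 9 against 10.7% of all other cells.

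Counted with a difference of at least 10 points, 8 of the 8 listed members were higher in cluster 5, where 72.1% of all 1057 listed genes were. In cluster 6 all 9 listed members were higher, against 51.9% of 1416 genes. In cluster 9 this held for 5 of 6 members, near the 76.9% of all 938 listed genes. With a minimum of 20 points, 3 of 6 members remained in cluster 9, since H2afz and Hist1h2ap differed by less. The median difference of the listed linker genes was 43.2 points in cluster 5 and 49.2 in cluster 6, where all listed genes had medians of 25.9 and 10.7. In cluster 9 the 2 listed linker genes had a median of 9.7 points beside 23.9 for all genes. The 3 variants had medians of 25.2, 32.3 and 32.5 points in clusters 5, 6 and 9.

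Set directly beside each other, cluster 9 was lower than clusters 5 and 6 by 35.0 points or more in the replication-dependent genes listed for all 3, and differed by under 8 points in the variants. Between cluster 5 and cluster 9, Hist1h2ap fell by 42.2 points, Hist1h1b fell by 37.8 points and Hist1h1e fell by 35.0 points. Of the 644 genes listed for both clusters these were the 3 with the lowest difference, and only 12 (1.86%) were lower in cluster 9 by at least 10 points. By the log odds of detection the 3 genes ranked 3, 1 and 7 from the lowest. H2afx, H2afz and H2afv differed by 4.1, 0.0 and 7.6 points in the other direction, with a median of all genes of -0.2. The 7 S phase genes listed for both clusters were also lower in cluster 9, by a median of -11.3 points with Gins2 the lowest at -21.6, and the 21 G2/M genes were higher by a median of 15.6. Genes with no entry in cluster 9 are missing from this comparison and from the ranks. Of the 29 S phase genes listed for cluster 5, only these 7 have an entry in cluster 9, and the detection of the others there is not known. Likewise Hist1h1a, Hist1h1d and Hist1h2ae have no entry in cluster 9.

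Against cluster 6, cluster 9 differed by -43.9 points for Hist1h2ap, -43.3 for Hist1h1e and -38.8 for Hist1h1b, while the 7 S phase genes had a median of -5.8. Here the 3 genes ranked 14, 15 and 22 from the lowest of 530 genes, of which 16.0% were lower by at least 10 points. By the log odds they ranked 40, 19 and 24. The variants differed by -3.2 (H2afx), 0.2 (H2afz) and 0.7 points (H2afv). Of the 629 genes listed for both clusters 5 and 6, 28.1% were lower and 22.9% higher in cluster 6 by at least 10 points. Among the 8 members listed for both, 1 differed by that much. This was Hist1h1a, higher in cluster 6 by 10.3 points, followed by Hist1h1e by 8.3, H2afx by 7.3 and H2afv by 6.9. The other 4 differed by -0.2 to 3.1 points, with a median of -0.4 over the 629 genes listed for both. Hist1h1d, at 48.2% in cluster 6, has no entry in cluster 5 and is not part of this count.

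**Figure D3:**
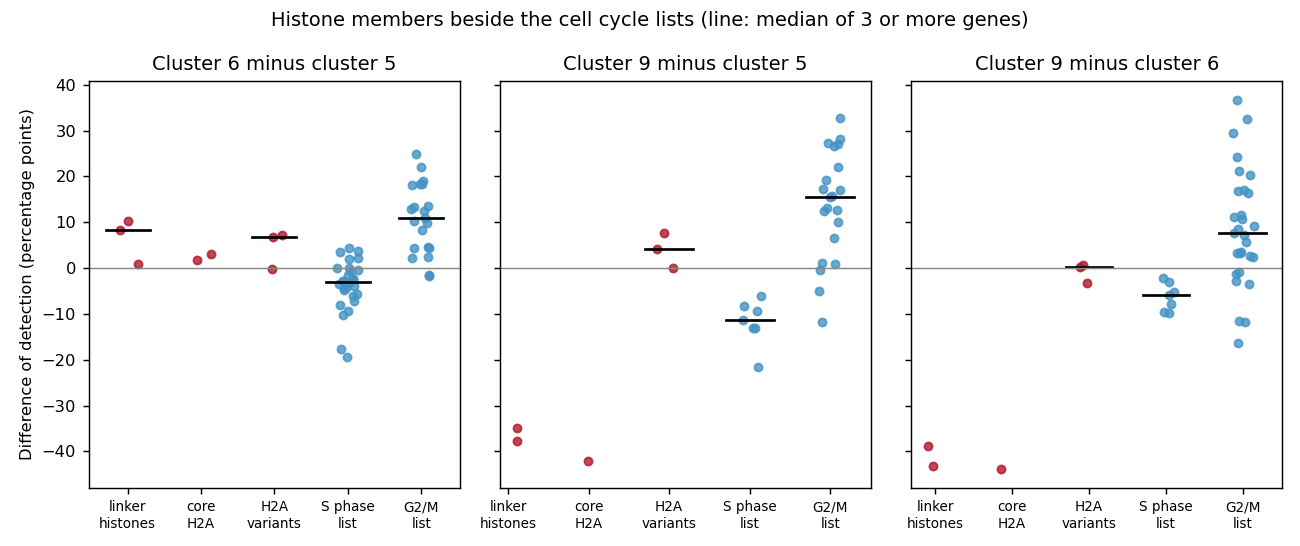
Difference of detection between pairs of clusters in percentage points, 1 point per gene listed for both; members in red, cell cycle lists in blue, lines at medians of 3 or more genes. In the panels with cluster 9, Hist1h1b, Hist1h1e and Hist1h2ap lie at -35.0 or below, under the 7 S phase genes listed for cluster 9 (the other S phase genes have no entry there), while the H2A variants lie between -3.2 and 7.6.

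The part of all cells that each cluster held, solved from the detections of the 10 genes listed in every cluster, was 8.81% for cluster 5, 7.46% for cluster 6 and 5.80% for cluster 9, 22.1% together. With these, the cells in which a gene was detected could be placed. For Hist1h1a 79.1% and for Hist1h2ae 70.9% of the positive cells lay in clusters 5 and 6, which held 16.3% of all cells. Clusters 5, 6 and 9 held 73.7% of the positive cells of Hist1h2ap and 54.0% of those of Hist1h1b. They held 41.6% of those of H2afx, 33.6% of those of Hist1h1e and 31.3% of those of H2afv. For H2afz the figure was 24.4%, close to the share of these clusters among all cells. Cluster 6 alone held 36.0% of the positive cells of Hist1h1d.

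**Figure D4:**
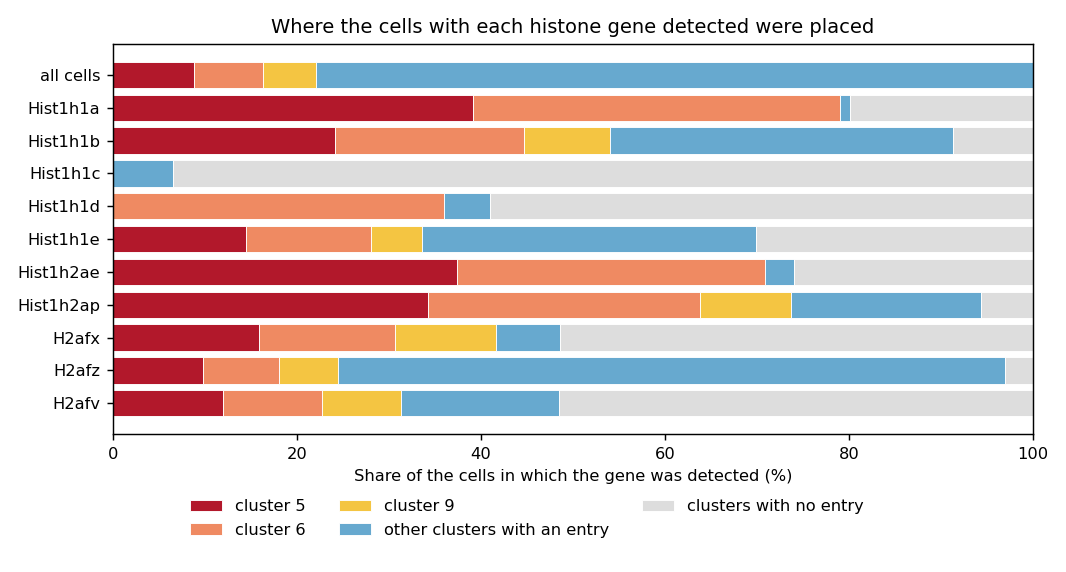
For each gene, the cells in which it was detected (100%) divided among cluster 5, cluster 6, cluster 9, the other clusters with an entry and the clusters with none; the top bar divides all cells, with every remaining cluster in blue. Clusters 5 and 6 take 79.1% of the cells positive for Hist1h1a and 18.0% of those positive for H2afz.

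In clusters 0, 1 and 3 the listed replication-dependent genes were all below the remaining cells. In cluster 1, 5 of 6 listed members were lower by at least 10 points, against 21.0% of all 729 listed genes. In cluster 0 it was 3 of 5, against 15.0% of 694, and in cluster 3 it was 4 of 5, against 28.3% of 427. H2afz was above its remaining cells in all 3 of these clusters, by 8.1 points in cluster 0, 6.6 in cluster 1 and 5.6 in cluster 3. With a minimum of 20 points, only Hist1h1b remained in each of these clusters. In cluster 4, 4 of 5 listed members were lower, which is near the 92.8% of all 2072 listed genes, and in cluster 10 the single listed member, Hist1h1e, was lower beside 98.5% of 718. Nearly all genes listed for clusters 4 and 10 were lower there, so nothing is read from the histones.

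Cluster 11, the smallest of the 12, had entries for 5 members. By at least 10 points, 3 of 5 listed members were higher there (Hist1h1c, Hist1h1e and H2afv), near the 44.4% of all 2487 listed genes, and at 20 points only Hist1h1c was. Hist1h1b (7.9 points) and Hist1h2ap (4.4 points) lay close to the median of all genes listed there, 6.6 points. Of the 12 S phase genes listed for cluster 11, 1 was higher and 5 were lower by at least 10 points, with a median of -8.6. The 18 listed G2/M genes had a median of -9.55, with 0 higher and 6 lower. Of all genes listed for cluster 11, 44.4% were higher and 28.7% lower by at least 10 points. All 10 adipocyte genes were listed for cluster 11, and 9 of them were at least 10 points higher there, with a median difference of 68.3 points.

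The other histone genes were added by name. Of the 7 further replication-dependent genes with an entry in any cluster, 6 were listed for cluster 6. At least 10 points higher there were 5 of these 6, beside 51.9% of all genes listed for that cluster. Replication-dependent genes without any entry are not counted here. Hist1h4d, a core H4 gene, was detected in 57.1% of cluster 5 (19.5%) and 68.8% of cluster 6 (19.2%), and in 10.6% of cluster 1 (24.9%). Hist2h2ac was detected in 44.1% of cluster 6 (7.1%), Hist1h3c in 34.0% (3.5%), Hist1h2ab in 30.8% (3.5%) and Hist1h4i in 54.2% (16.8%). Of the 7, 0 had an entry in cluster 9. Like Hist1h1c, Hist1h4i and Hist1h2bc were higher in cluster 11, at 66.5% (18.9%) and 97.1% (73.1%). Hist1h2bc, an H2B gene, was lower in cluster 5 at 57.8% (75.0%) and at 74.2% (73.4%) in cluster 6. Hist1h4h had its only entry in cluster 4, at 9.2% (13.2%).

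Of the 10 replacement histone genes, 8 had an entry. Cenpa, which encodes the histone H3 variant of centromeres and is also on the G2/M list, was detected in 95.7% of cluster 9 (12.7%) and 63.1% of cluster 6 (13.9%), the opposite order to Hist1h1b. The linker genes H1f0 and H1fx had no cluster with an entry in common, so their patterns cannot be compared. H1f0 was at 86.3% in cluster 6 (55.9%) with no entry in clusters 5 and 9, and H1fx was at 44.8% in cluster 5 (17.0%) and 49.1% in cluster 9 (17.7%). The macroH2A gene H2afy was at 90.6% in cluster 5 (65.0%) and 88.4% in cluster 9 (66.0%), and H2afy2 at 44.1% in cluster 5 (15.7%). H2afj was at 97.1% in cluster 11 (74.2%) and 82.7% in cluster 7 (74.0%). The H3.3 genes H3f3a and H3f3b were detected in 93.6% and 95.7% of all cells.

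**Figure D5:**
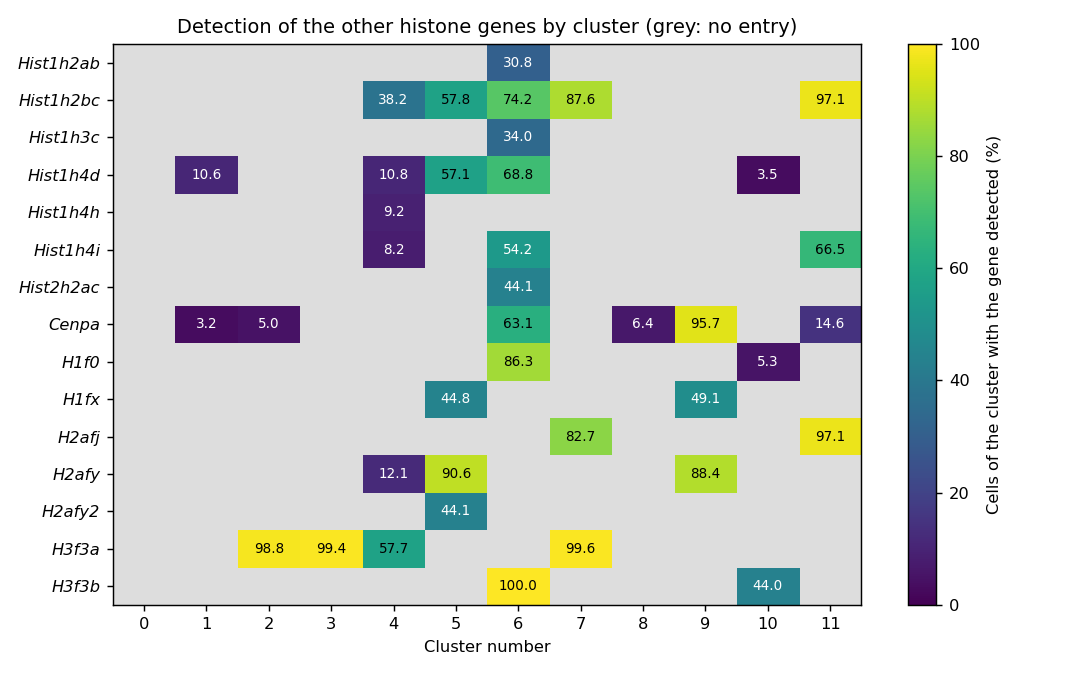
Detection of the 15 other histone genes with an entry (rows) inside each cluster (columns), in percent of the cluster's cells; grey cells have no entry. Cluster 6 has an entry for 6 of the 7 Hist genes, Cenpa rises from 63.1% in cluster 6 to 95.7% in cluster 9, and H2afj and Hist1h2bc are both at 97.1% in cluster 11.

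Genes that supply histones to chromatin were also listed for these clusters. Of 30 such genes (chaperones, the stem-loop binding protein Slbp and others), 20 had an entry. In cluster 5, 15 of 15 listed were at least 10 points higher, beside 72.1% of all listed genes, with a median of 36.5 points beside 25.9. In cluster 6 it was 16 of 17 beside 51.9%, with a median of 37.7 beside 10.7, and in cluster 9 it was 5 of 5 beside 76.9%, with 22.4 beside 23.9. The 5 listed for cluster 9 differed from cluster 5 by a median of -0.6 points and from cluster 6 by -0.3, unlike Hist1h1b, Hist1h1e and Hist1h2ap. This contrast covers only those 5 supply genes. The others listed for clusters 5 and 6 have no entry in cluster 9, and their detection there is not known. Hat1, which acetylates new histone H4, led in cluster 5 at 80.6% (23.5%), followed by Chaf1b and Nasp. Nasp, a chaperone of linker histones and H3, was at 92.1% in cluster 5 (41.5%) and 89.5% in cluster 6 (42.5%). Hjurp, the chaperone of the centromeric histone, led in cluster 6 at 89.1% (30.7%), ahead of Chaf1a at 65.6% (14.6%) and Nasp. Anp32e, a chaperone that removes H2A.Z, led in cluster 9 at 86.6% (45.3%), followed by Ssrp1 and Supt16, the subunits of the FACT chaperone, at 92.1% (64.5%) and 87.4% (65.0%).

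The genes whose detections were most like each member were found by Pearson's r of the log odds of detection over the clusters listed for both, at least 6. For Hist1h1b these were Ncapg2, Cbx5 and Clspn (r = 0.989, 0.986 and 0.984, 6 clusters each). For Hist1h2ap they were Cbx5, Gmnn and Clspn (r = 0.988, 0.985 and 0.981, 6 or 7 clusters), and Hist1h1b itself had r = 0.976 over 9 clusters. For Hist1h1e they were Hjurp (0.986 over 7), Angptl4 (0.944 over 6) and Hist1h1b (0.937 over 7). For H2afz they were Lsm2, Tubb6 and Cks1b (0.993, 0.992 and 0.992 over 6, 7 and 9 clusters), and for H2afv they were Cks1b, Stmn1 and Dek (0.969, 0.920 and 0.895 over 6). Between Hist1h1b and H2afz r was 0.816 over 9 clusters. The clusters share their depth across genes, and few clusters stand behind each r. By Spearman's rho 0 of the 3 genes stayed among the top 3 for Hist1h1b, Hist1h1e and H2afz, 1 stayed for H2afv and 2 stayed for Hist1h2ap.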

How the data were processed

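Single-cell RNA-seq was performed on 8 samples in 4 groups of 2 (WT and DKO, day 0 and day 6). Per the study's methods, reads were mapped to mm10 with Cell Ranger (version 6.0.0, also in the submitters' processing notes), the captures were aggregated and equalized in read depth, and cells with fewer than 500 genes or more than 10% mitochondrial expression were removed. Immune, glial and endothelial cells were removed and the rest clustered in Seurat at a resolution of 0.6. The deposited values used are 2 fractions per entry (detection of the gene inside the cluster, and in the remaining cells), pooled over the samples by the authors and given in steps of 0.001. Entries passed the authors' minimums of 0.1 for detection and 0.25 for the log fold change. The table also holds fold changes, p-values and adjusted p-values of the authors' own comparison (MAST test over single cells), which were not used. Doublet removal is not described in the methods, and doublets could not be looked for without single cells.

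Fractions were turned into percents. A member was counted as higher or lower where inside and outside differed by at least 10 percentage points, and clusters within 2 points were not ranked. Cluster shares were solved by least squares from the 10 genes listed in every cluster. Detection over all cells was the share-weighted mean of both fractions, averaged over a gene's entries. All entries describe the same cells, so the range over entries is a check of the arithmetic and not an error from counting or sampling. The solver was tested on simulated data. Odds were computed with fractions held between 0.0005 and its complement. Values under alternatives were counted as equal within 0.2 points for shares and detection and 1 point for shares of positive cells, and counts within 1.5 times. Of all symbols, 7 (35 entries) were written as dates, and those genes could not be named. These entries were left out of the shares and of comparisons between clusters. Positions came from GENCODE M21 and promoters from RefSeq (GRCm38.p6), both the mm10 build.

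The members and gene lists were chosen with earlier results of these data known. Named were the 10 members, all other histone genes with an entry, the 3 leading genes per list in clusters 5, 6 and 9, and the 3 genes most like each member with at least 6 entries. Gins2, Slbp, Hist1h2ao, Hist1h2be and Gm8203 were named after their values or overlaps had been seen. Python 3.11.15, numpy 2.4.6, pandas 2.3.3 and matplotlib 3.10.9 were used.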

Additional observations from a re-analysis of the deposited data

How the results depend on the processing

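No paired analysis was possible because cells of all samples were pooled before deposit and nothing here was tested across samples. Solving the cluster shares from all 2687 genes listed in at least 2 clusters moved no share by more than 0.0583 points. It left the detection over all cells of the 10 members and the placing of positive cells of the 9 members concerned within the stated limits. Detection over all cells also stayed within these limits without the entries of clusters 4 and 10. That had to be so, since every remaining entry restates the value with the cells of these clusters included. A minimum of 20 points lowered the count of higher members to 3 in cluster 9 and 1 in cluster 11, and that of lower members to 1 in each of clusters 0, 1 and 3. A minimum of 5 points or an odds ratio of at least 2 moved none of the 9 counts by over 1.5 times. The cluster with the highest detection was the same for 9 of 10 members by the difference and by the odds ratio, and became cluster 5 for H2afz, whose detection is at its upper limit. Requiring detection of at least 25% on one side left all 23 list medians at exactly the same value, so it was hardly a check of them. Of the 3 most similar genes, Spearman's rho kept 0 for Hist1h1b, 0 for Hist1h1e, 0 for H2afz, 1 for H2afv and 2 for Hist1h2ap, and the cause was not tested. Ranking by log odds was chosen after seeing the data. Against cluster 6 it put Hist1h2ap at 40, Hist1h1e at 19 and Hist1h1b at 24 of 530 genes. Without cell numbers and depth per cluster, differences of a few points cannot be told from counting error.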
